A study of Mus musculus with 6 samples.

Results

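Clade B serpins are serine protease inhibitors that stay mostly inside the cell, and 7 of them were followed in mouse macrophages given a saturated fatty acid. They are Serpinb9b, Serpinb9, Serpinb6a, Serpinb6b, Serpinb8, Serpinb1a and Serpinb2, taken by name from the 36333 genes of the deposited tables, which list 27 clade B serpins in all. The group was chosen by the measured change of Serpinb9b, which rose most of all genes in this same comparison, so the values of Serpinb9b are a description with no test. Of the other 6 it was asked which of these relatives rise too. The cells were wild type bone marrow derived macrophages of C57BL/6 genotype, grown for 7 days in M-CSF (macrophage colony-stimulating factor, 10 ng/mL). All 6 cultures received treatment medium for 24 h, with 100 µM stearic acid in 3 and an equal volume of the ethanol vehicle in the other 3. Polyadenylated RNA was sequenced, and levels are in TPM (transcripts per 1000000, a share of the library corrected for gene length, so that genes can be compared). The labels number replicates 1 to 3 in each group and do not say whether these were separate animals or wells, so the spread between them may be technical. No source used here gives the age of the animals.

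A serpin displays an exposed reactive centre loop as bait. The protease that cleaves it is trapped on the serpin in a covalent complex, and both molecules are spent. Clade B serpins lack a classical secretion signal and are known as guards of the cytosol and nucleus against proteases that leak from granules or lysosomes. Mice carry several copies of genes that are single in humans, and the copies lie in a cluster on chromosome 13, with another cluster on chromosome 1.

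Depth, estimated from the steps between low RPKM values, came to 58.1 M to 80.8 M (reads or pairs, not known which) in a library, which would make 1 TPM worth 19.1 to 27.7 of these per kilobase of transcript. Between 11379 and 11639 genes reached 1 TPM in a library. The macrophage label held: all 7 macrophage markers fixed for this check were above 1 TPM, at a summed 32000 to 32900 TPM in vehicle and 22900 to 28300 TPM in stearic acid libraries, where 1 was called higher and 3 lower. Of 8 T and NK cell markers none reached 1 TPM in any library, and Cd3e, Cd3g, Ncr1 and Gzma were at 0 throughout. Mast cell markers summed to 0.390 to 0.580 TPM in vehicle and 1.07 to 1.40 TPM with stearic acid, carried by Kit, with Mcpt4, Tpsb2 and Mcpt8 at 0. B cell markers summed to 2.64 to 2.95 TPM in vehicle and 1.28 to 1.80 TPM with stearic acid. Most of this was Cd79b, which was called lower. Fibroblast markers summed to 1.66 to 3.38 TPM in vehicle and 0.765 to 2.57 TPM with stearic acid, mostly Col1a1 and Col1a2. Epithelial markers, mostly Cdh1, summed to 1.67 to 2.02 TPM and 0.833 to 1.57 TPM. In bulk RNA fewer cells of a type and less RNA per cell cannot be told apart. Across all 11551 genes tested, which are those that averaged 1 TPM or more over the 6 libraries, 24.7% changed (limma, Benjamini-Hochberg adjusted p under 0.05), 12.8% higher and 11.9% lower, with a median log2 change of -0.03. The response was not equally large in the treated libraries. Over all genes called higher, the median log2 difference from the vehicle mean was 0.30 in replicate 1, 0.56 in replicate 2 and 0.43 in replicate 3.

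With stearic acid, Serpinb9, Serpinb6b and Serpinb1a rose beside Serpinb9b. Serpinb6a and Serpinb8 did not pass the test, and Serpinb2 was barely present in either group. The genes that rose all lie in the chromosome 13 cluster, as do Serpinb1c and Serpinb1b, which rose as well. Of the 6 serpins beside Serpinb9b, 4 reached the filter of 1 TPM in vehicle cells. Of these 4, 2 rose, 0 fell and 2 did not pass, also 0 lower at an unadjusted p under 0.05, against 12.8% of all tested genes higher. Serpinb1a reached the filter only through its level after stearic acid, so its call is given apart and not counted with them, and Serpinb2 did not reach it.

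**Figure D1:**
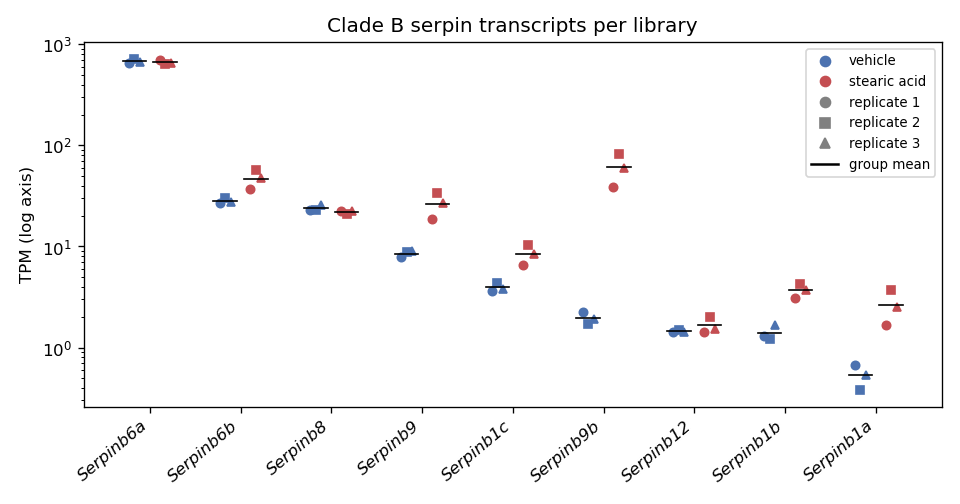
TPM (log axis) of the 9 clade B serpins that reached the filter, in vehicle (blue) and stearic acid (red) libraries, with the shape marking the replicate number and a black line the group mean. Serpinb9b moved from 1.73 to 2.26 TPM up to 38.9 to 83.0 TPM, whereas Serpinb6a stayed between 639 and 718 TPM in all 6 libraries.

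Serpinb9b (NCBI gene 20706; GRCm38 chromosome 13, 33027414 to 33040588) is a close copy of Serpinb9. It stood at 2.26, 1.73 and 1.93 TPM in vehicle replicates 1 to 3 and at 38.9, 83.0 and 60.2 TPM in stearic acid replicates 1 to 3. The groups were far apart, and the stearic acid libraries also differed from one another, with replicate 1 lowest. The ratio of the group means, 60.7 ± 22.02 over 1.97 ± 0.269 TPM (SD, n = 3 libraries per group), was 30.8. The log2(TPM + 1) scale used for all changes here understates those of low genes. On it the difference was 4.32 (SE 0.22), and none of the 11551 tested genes had a larger one. This is the value for which the gene was chosen.

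Serpinb9 (gene 20723; chromosome 13, 32997061 to 33017955), the mouse counterpart of human PI-9, is the inhibitor that protects lymphocytes and antigen-presenting cells from granzyme B. Its level was 7.82, 8.77 and 8.95 TPM in vehicle and 18.5, 33.9 and 26.7 TPM in stearic acid libraries. The groups did not overlap, which was so for 44.6% of tested genes in either direction and for 22.8% in the higher direction. Serpinb9 rose 3.10-fold in mean TPM (log2 1.49, SE 0.18, limma adjusted p = 0.0019), and only 1.13% of tested genes were called higher with at least a 2-fold change. The call held in each of 15 alternative settings (limma adjusted p 4.4e-08 to 0.032).

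The upstream sequences of this pair are shown because they are neighbours that rose, with the window of Serpinb9e, a silent copy in the same cluster, beside them. Each runs over the 250 bases before the gene start in the RefSeq table of GRCm38.p6, all on the plus strand. Capitals in the windows of Serpinb9b (chr13:33027164-33027413) and Serpinb9 (chr13:33004291-33004540) mark runs of at least 8 identical bases in their global alignment. The window of Serpinb9e (chr13:33249358-33249607) has no capitals. The Serpinb9 start used in the table lies inside the annotated gene span, and its window lies within the span of the antisense RNA Gm36181.
Serpinb9b: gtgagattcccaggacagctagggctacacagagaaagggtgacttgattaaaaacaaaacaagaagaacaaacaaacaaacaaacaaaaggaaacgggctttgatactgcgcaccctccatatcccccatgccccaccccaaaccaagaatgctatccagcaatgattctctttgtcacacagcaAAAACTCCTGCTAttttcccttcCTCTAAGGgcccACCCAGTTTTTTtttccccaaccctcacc
Serpinb9: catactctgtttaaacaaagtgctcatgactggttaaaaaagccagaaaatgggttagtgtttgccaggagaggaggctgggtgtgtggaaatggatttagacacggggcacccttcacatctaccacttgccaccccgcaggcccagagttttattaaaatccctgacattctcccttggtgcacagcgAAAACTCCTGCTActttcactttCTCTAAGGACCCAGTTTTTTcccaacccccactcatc
Serpinb9e: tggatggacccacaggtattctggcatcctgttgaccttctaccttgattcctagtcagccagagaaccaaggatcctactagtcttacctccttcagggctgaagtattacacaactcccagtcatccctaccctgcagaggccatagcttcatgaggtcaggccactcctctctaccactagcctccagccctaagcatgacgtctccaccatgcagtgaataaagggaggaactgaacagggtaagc

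Serpinb9b and Serpinb9 were identical at 61.6% of the 250 positions. Serpinb9b matched the 16 other windows of the cluster at 45.2% to 52.0%. The alignment ran over whole windows, so these values can miss a stretch that lies at another distance from the start. A window of Serpinb1c, for example, holds cacacagcaaaagctcctg, close to cacacagcaaaaactcctg of Serpinb9b but further from its start. Such shifted stretches were not searched for, in the silent copies either. The likeness of Serpinb9b and Serpinb9 lay near the start. In the 110 bases next to it 74.5% of the Serpinb9b bases were matched in Serpinb9, against 51.4% in the 140 bases beyond, a division chosen after the alignment was seen. The 3 capital runs are AAAACTCCTGCTA, CTCTAAGG and ACCCAGTTTTTT. The windows of Serpinb9d, Serpinb9e, Serpinb9f and Serpinb9g, all at or near 0 TPM, were 85.2% to 94.4% identical to one another.

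Promoter windows were present for 25 of the 27 clade B serpins, with none for Serpinb1a or Serpinb13. Both strands were searched for TGACNNNGC, the core of the antioxidant response element bound by NRF2, for TGATGNAA, a form of the element bound by ATF4 with a C/EBP partner, and for a form of the NF-kB site (GGG, any 2 bases, then TTTCC). These letters occur in 10.2%, 3.45% and 1.41% of 32851 windows of the same length. None of the 3 was found in the windows of Serpinb9b, Serpinb9, Serpinb6b, Serpinb1b or Serpinb1c. For Serpinb9, Serpinb6b and Serpinb1b the only window lies inside the annotated gene span, so the bases before that span were not searched. The only match among the 7 chosen serpins was GCTTTGTCA, the antioxidant core read on the strand opposite the gene, 173 to 181 bases before one of the 2 starts of Serpinb6a.

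Serpinb6a (gene 20719; chromosome 13, 33917918 to 34002794) is a cytosolic inhibitor of cathepsin G and was by far the most abundant clade B serpin. It was at 658, 718 and 664 TPM in vehicle and at 705, 639 and 654 TPM in stearic acid libraries, and the groups overlapped. The log2 difference was -0.03 (95% interval -0.18 to 0.13, limma adjusted p = 0.76), and its sign turned under several settings. The gene span overlaps Nqo2, Ripk1 and a long noncoding RNA, 1110046J04Rik, none of which passed.

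Serpinb6b (gene 20708; chromosome 13, 32956811 to 32979067) is a paralogue that lies near Serpinb9, at the opposite end of the cluster from Serpinb6a. Its level was 26.7, 30.0 and 27.4 TPM in vehicle and 36.9, 57.1 and 47.1 TPM in stearic acid libraries, without overlap. It rose 1.68-fold in mean TPM (log2 0.71, SE 0.14, limma adjusted p = 0.011). The call was lost without vehicle replicate 2 (limma adjusted p = 0.057), without vehicle replicate 3 (0.060) and with no filter on low values (0.057), over a range of 7.2e-06 to 0.060. The coding sequences of Serpinb6a and Serpinb6b are 86.2% identical, the same value as for Serpinb9 and Serpinb9b, against 59.8% to 69.4% between clade B subfamilies among those compared.

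The difference between members was described by the log2 ratio of their levels within each library. The log2 difference of Serpinb6b from Serpinb6a was -4.57, -4.54 and -4.55 in vehicle and -4.22, -3.46 and -3.77 in stearic acid libraries, a shift of 0.74. The difference of Serpinb9 from Serpinb6a shifted by 1.52, that of Serpinb9 from Serpinb8 by 1.63 and that of Serpinb9 from Serpinb6b by 0.78. Every library of one group lay on the same side of every library of the other in these 4 ratios. The first gene of each ratio, Serpinb9 or Serpinb6b, had been called higher in the same data, so this separation follows in part from those calls. Single tested genes separated in 44.6% of cases, in either direction. How often ratios of 2 genes do so was not counted. The two-sided exact permutation test gave p = 0.1 for each, also after adjustment over the 4 pairs, which is the smallest p that 3 against 3 allow.

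Serpinb1a (gene 66222; chromosome 13, 32842092 to 32853206) is the inhibitor of neutrophil elastase, cathepsin G and proteinase 3, abundant in neutrophils. It was under 1 TPM in vehicle, at 0.679, 0.380 and 0.531 TPM, and at 1.66, 3.68 and 2.54 TPM with stearic acid. The groups did not overlap, and the mean was 4.96 times that of vehicle (log2 1.21, SE 0.19, limma adjusted p = 0.0048). With a pseudocount of 0.1 the log2 change was 2.07. Without vehicle replicate 2 the limma adjusted p was 0.0504, within a range of 2.4e-06 to 0.0504 over the alternatives. Of 10 neutrophil markers, S100a8 (3.33 against 6.41 TPM, means) and Mmp8 (2.22 against 3.01 TPM) were called higher. The 10 summed to 4.84 to 6.92 TPM in vehicle and 9.39 to 10.2 TPM in stearic acid libraries, carried by these 2 genes, and their part in the result was not tested. The other 8 stayed under 1 TPM in all libraries, and their low values went in both directions. Means were 0.295 against 0.145 TPM for S100a9 and 0.104 against 0.0220 TPM for Camp. For Ngp they were 0.0577 against 0.140 TPM and for Ltf 0.0479 against 0.0497 TPM. The vehicle mean of S100a9 came mostly from replicate 2, at 0.715 TPM. Retnlg was at 0 in all libraries. Elane, which encodes neutrophil elastase, was listed at 0.0392 TPM in vehicle replicate 1 and at 0 elsewhere.

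The related copies Serpinb1c and Serpinb1b on the same chromosome rose as well. Serpinb1c was at 3.63, 4.33 and 3.82 TPM in vehicle and at 6.58, 10.2 and 8.41 TPM with stearic acid (log2 0.92, SE 0.14, limma adjusted p = 0.0045). Serpinb1b was at 1.29, 1.21 and 1.66 TPM against 3.10, 4.29 and 3.74 TPM (log2 0.98, SE 0.12, limma adjusted p = 0.0021). Both calls held in every alternative in which the gene was tested. The 3 copies are 87.8% to 90.6% identical in coding sequence. Of the 50-base stretches in their annotated transcripts, 2.81% of those of Serpinb1a, 3.09% of Serpinb1b and 6.28% of Serpinb1c occur in another clade B serpin. For Serpinb9b and Serpinb9 the shared part was 0.388% and 0.378%, for Serpinb6a 0.506% and for Serpinb6b 2.26%. The read length and the rule for reads shared between copies were not stated in any source used here, so the split of such reads is uncertain.

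**Figure D2:**
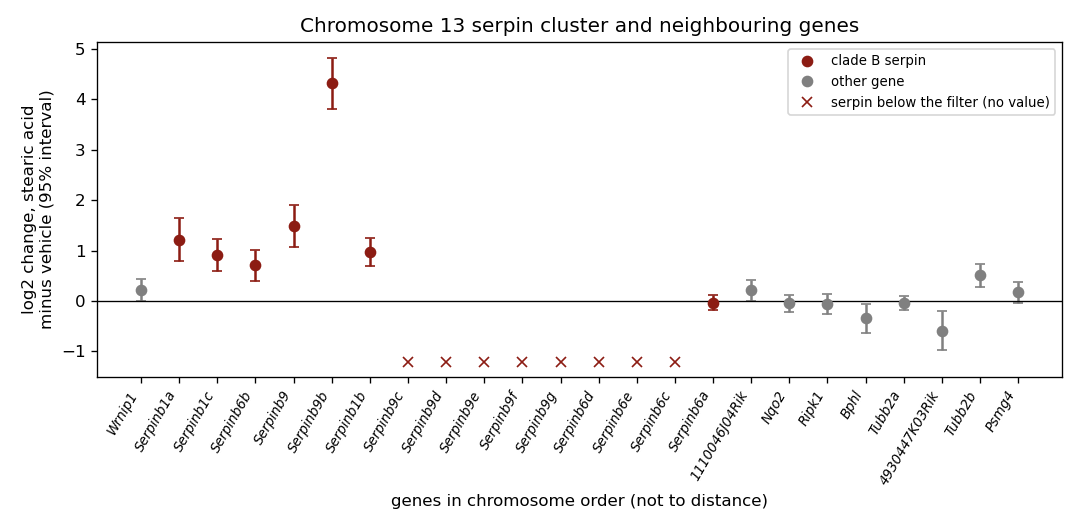
Log2 change with its 95% interval for the clade B serpins of chromosome 13 (dark red) and the neighbouring genes that reached the filter (grey), in chromosome order, with crosses for serpins that have no value. The 6 serpins from Serpinb1a to Serpinb1b lie between 0.71 and 4.32, Serpinb6a lies at -0.03, and the neighbouring genes lie between -0.59 and 0.51.

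Along chromosome 13 the serpins that rose followed one another in the order of serpin genes. From 32842092 to 33094380 the order is Serpinb1a, Serpinb1c, Serpinb6b, Serpinb9, Serpinb9b and Serpinb1b, and in each the stearic acid libraries lay above the vehicle libraries without overlap, as in 22.8% of all tested genes. The 6 include Serpinb9b, picked for its rise, and Serpinb1a, which reached the filter through its stearic acid level. Next come 8 serpin genes that did not reach the filter, 6 of them at 0 in all libraries, and then Serpinb6a. In this cluster 5 serpins beside Serpinb9b had a vehicle mean of at least 1 TPM, and 4 of these rose, against 12.8% of all tested genes. On chromosome 1, where the cluster holds 12 clade B serpins, the 2 tested, Serpinb8 and Serpinb12, did not pass.

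Genes beside the serpins within 500000 bases of either cluster mostly did not pass. Of 34 such genes 13 were tested, 1 rose, 1 fell and 11 did not pass, against 24.7% of all tested genes changed. At an unadjusted limma p under 0.05, 5 of the 13 were higher and 2 lower. Without overlap of the groups 4 were higher and 1 lower, as in 22.8% and 21.7% of all tested genes. Tubb2b, a beta-tubulin, rose (log2 0.51, SE 0.10, limma adjusted p = 0.011) and lost its call without vehicle replicate 1 (0.052) or 3 (0.058; 0.0023 to 0.058 over the alternatives). The noncoding gene 4930447K03Rik fell by 0.59 on the log2 scale (limma adjusted p = 0.037) and lost its call when vehicle replicate 1, 2 or 3 was omitted, or stearic acid replicate 3 (up to 0.12). Its log2 difference was -0.39 without stearic acid replicate 2 and -1.06, no longer past the threshold, with a pseudocount of 0.1 (limma adjusted p = 0.051). Wrnip1, the tested gene next to Serpinb1a, had a log2 difference of 0.22 (limma adjusted p = 0.11). Inside the gene span of Serpinb9b, on the opposite strand, lies the noncoding RNA Gm36099. It was listed at 0.0132, 0 and 0.0191 TPM in vehicle and at 0.381, 0.636 and 0.362 TPM with stearic acid, below the filter. Gm36181, opposite Serpinb9, was at 0, 0 and 0.0330 TPM against 0.0571, 0.206 and 0.200 TPM. No source used here says whether strand was used in counting, so reads of each serpin and its antisense partner cannot be told apart.

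Serpinb8 (gene 20725; chromosome 1, 107589926 to 107608978) is an inhibitor of the proprotein convertase furin. Its level was 23.2, 23.2 and 26.0 TPM in vehicle and 22.2, 20.8 and 22.3 TPM with stearic acid. Every stearic acid library was below every vehicle library, as in 21.7% of tested genes, but by little. The difference did not pass (log2 -0.14, 95% interval -0.31 to 0.03, limma adjusted p = 0.20; 0.077 to 0.47 over the alternatives). Serpinb12 did not pass either, at 1.45 ± 0.0384 against 1.66 ± 0.307 TPM (log2 0.11, 95% interval -0.13 to 0.36, limma adjusted p = 0.46).

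Serpinb2 (gene 18788; chromosome 1, 107500892 to 107525600) encodes plasminogen activator inhibitor 2, a protein known for its strong induction in macrophages by bacterial products. It was listed at 0.0162, 0.0505 and 0.0704 TPM in vehicle and at 0 in all 3 stearic acid libraries. These values are too close to 0 for a test or a fold. Among the other clade B serpins 12 of 20 were at 0 in every library, and Serpinb5, Serpinb7, Serpinb10, Serpinb9e and Serpinb6c did not exceed 0.0993 TPM.

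The order of the levels changed. In vehicle cells Serpinb6a, at 679.7 ± 33.0 TPM, was followed by Serpinb6b, Serpinb8, Serpinb9, Serpinb1c and Serpinb9b, and the ranges of neighbours in that order did not overlap. With stearic acid Serpinb9b ranked next to Serpinb6a, at 60.7 ± 22.02 TPM against 47.01 ± 10.1 TPM for Serpinb6b, but the ranges of these 2 overlapped. Those of Serpinb9 (26.4 ± 7.69 TPM) and Serpinb8 (21.8 ± 0.831 TPM) overlapped too. In vehicle Serpinb8 had been above Serpinb9 without overlap.

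**Figure D3:**
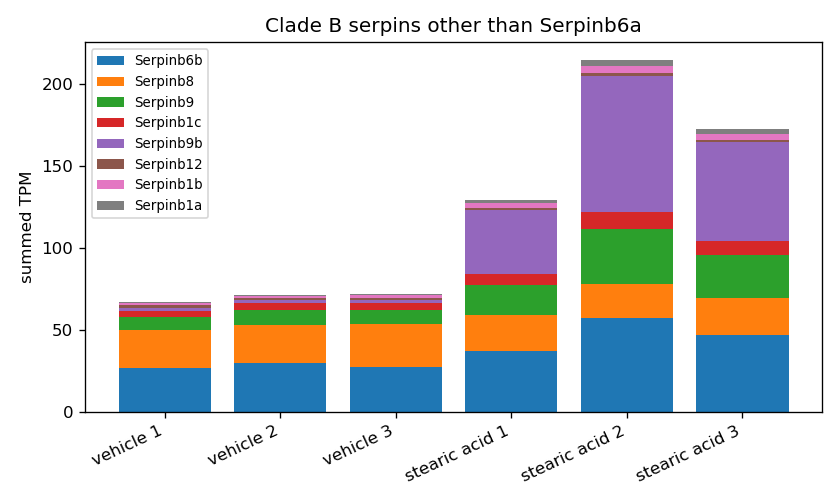
Summed TPM of the clade B serpins other than Serpinb6a, stacked by gene, in each library. The sum is 67.1 to 71.9 TPM in vehicle and 129 to 215 TPM with stearic acid, and Serpinb9b makes up the largest added part.

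As a share of all clade B transcripts, Serpinb6a made up 90.7%, 91.0% and 90.2% in vehicle and 84.5%, 74.8% and 79.1% with stearic acid. Serpinb9b made up 0.264% ± 0.0463 in vehicle and 7.22% ± 2.53 with stearic acid (SD, n = 3). The share of Serpinb9 was 1.14% ± 0.0727 and 3.14% ± 0.878, and that of Serpinb6b 3.74% ± 0.0566 and 5.60% ± 1.14. The summed level of all 27 was 749.8 ± 34.3 TPM in vehicle and 838 ± 14.1 TPM with stearic acid. Since Serpinb6a fills most of this sum, the sum without it shows the rest more clearly, at 70.1 ± 2.60 against 172 ± 42.9 TPM.

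**Figure D4:**
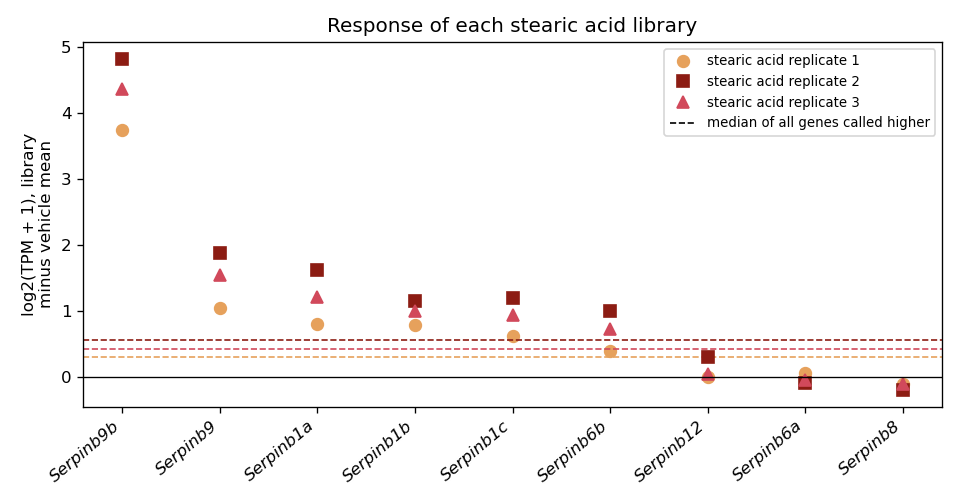
Difference of each stearic acid library from the vehicle mean, in log2(TPM + 1), for the 9 clade B serpins that reached the filter, with dashed lines at the median of all genes called higher in the same library. In the 6 serpins on the left replicate 1 is lowest and replicate 2 highest, as are the dashed lines.

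The 3 stearic acid libraries kept 1 order in all of the serpins that rose. Serpinb9 was above its vehicle mean by 1.04, 1.88 and 1.54 in replicates 1 to 3, and Serpinb6b by 0.39, 1.00 and 0.73. Serpinb9b was above by 3.75, 4.83 and 4.37. The same order, replicate 1 below 3 below 2, was found in 76.7% of the 1482 genes called higher, so it is shared with most of the response. In each of the 6 serpins every library exceeded the median of the genes called higher in it. This is a description only, since the 6 were taken because they rose. They include Serpinb9b, picked for its rise, and Serpinb1a, which reached the filter through its stearic acid level. How many of the genes called higher do the same was not counted.

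The genes most like Serpinb9b in pattern, by Pearson r of log2(TPM + 1) over the 6 libraries among 9566 genes averaging 5 TPM or more, were Procr (0.9993), Oser1 (0.9992), Scd2 (0.9992), Creg1 (0.9987) and Plin2 (0.9986). The points share their libraries, and r takes no account of the size of a change. It spans both groups and so includes the group difference for which Serpinb9b was picked. The ranking is therefore a description. Procr, the endothelial protein C receptor, was at 66.8, 122 and 91.4 TPM with stearic acid against 11.5 ± 1.29 TPM in vehicle, whereas Oser1 was at 109 ± 1.02 against 100.4 ± 0.419 TPM. Scd2 is a fatty acid desaturase and Plin2 a coat protein of lipid droplets. Serpinb9 stood at rank 144 (r = 0.98) and Serpinb6b at rank 777 (r = 0.94). For Serpinb6b the likest genes were Mrps10 (0.9994), Prmt3 (0.9986), Gnl3 (0.9982), Emp1 (0.998) and Pdia4 (0.9978). Mrps10 belongs to the mitochondrial ribosome, Gnl3 is the nucleolar protein nucleostemin and Pdia4 a disulfide isomerase of the endoplasmic reticulum. In vehicle Serpinb6b was highest in replicate 2 and Serpinb9b in replicate 1.

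The proteases that clade B serpins are known to act on were read from a list of 20 genes, including partners and receptors. Of these 10 were tested, 5 rose, 0 fell and 5 did not pass, with 1 lower at an unadjusted p under 0.05, against 12.8% of all tested genes higher and 24.7% changed in either direction. Their median log2 change was 0.21 against -0.03 for all tested genes. The granule proteases were at or near 0. Gzma, which encodes granzyme A, was at 0 in all libraries, and Gzmb, the target of Serpinb9, was listed at 0.0264 TPM in vehicle replicate 2 and at 0 elsewhere. Gzmm did not exceed 0.769 TPM, and Elane, Ctsg and Prtn3 did not exceed 0.0932 TPM.

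Of the lysosomal proteases, Ctss, Ctsb and Ctsl were abundant, at vehicle means of 4393, 3264 and 693 TPM, and Ctsk was far lower. Ctsk, cathepsin K, was at 7.40, 6.09 and 6.81 TPM in vehicle and at 15.2, 23.4 and 19.7 TPM with stearic acid (log2 1.38, SE 0.14, limma adjusted p = 0.00094), and this rise held in all 15 alternatives. Ctsb (log2 0.26, limma adjusted p = 0.017) and Ctsl (log2 0.24, limma adjusted p = 0.029) rose by little from 3264 and 693 TPM. Under quantile normalization Ctsb was at 0.13 and did not pass (limma adjusted p = 0.17), and under median-of-ratios scaling Ctsl did not pass (0.052). Without the filter Ctsk was the only call of the list. Urokinase, encoded by Plau, was at 190, 206 and 167 TPM in vehicle and at 235, 588 and 421 TPM with stearic acid (log2 1.05, SE 0.27, limma adjusted p = 0.025). Its receptor gene Plaur rose too (log2 0.71, SE 0.21, limma adjusted p = 0.036), by 0.46 when stearic acid replicate 2 was omitted. Omitting vehicle replicate 2 as well gave 0.40, which did not pass (limma adjusted p = 0.086), nor did Plaur under median-of-ratios scaling (0.052). When vehicle replicate 1 or 3 or stearic acid replicate 3 was omitted, 1 of the 5 was still called, and omitting vehicle replicate 2 gave 2. The caspases Casp1 (log2 -0.18, limma adjusted p = 0.077), Casp4 (log2 -0.17) and Casp8 (log2 -0.17) did not pass, nor did Furin (log2 0.17, limma adjusted p = 0.16) or Ctss (log2 0.07).

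Of 35 serpins of other clades 18 were at 0 in every library and 3 were tested. Serpine2, protease nexin 1, was lower, with 2.06 ± 0.241 TPM in vehicle and 1.30 ± 0.177 TPM after treatment (log2 -0.41, limma adjusted p = 0.026). Omitting vehicle replicate 1, 2 or 3, or stearic acid replicate 3, ended that call (up to 0.11), as did quantile normalization (0.057). With a pseudocount of 0.1 the difference was -0.63. Serpini1, neuroserpin, did not pass (log2 -0.07, limma adjusted p = 0.63).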

How the data were processed

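The 6 tables, 1 per library (3 vehicle, 3 stearic acid), were read. Per the file headers, the authors deposited TPM and RPKM values for 36333 genes with NCBI gene numbers. The submitters' processing notes name DRAGEN (version not given) and GRCm38 or mm10; no source used here gives the annotation, the counting rule or strand use. Of the gene numbers 35336 (97.3%) matched the RefSeq table of GRCm38.p6, and all 27 clade B serpins did. Names read as dates (27) were replaced through gene numbers.

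Treatment was the only term of a limma 3.58.1 fit (R 4.3.3) with an intensity trend. It used log2(TPM + 1) of genes that averaged 1 TPM or more, Benjamini-Hochberg adjusted over all tested genes, threshold 0.05. The fit was also run on simulated data with noise drawn independently for each gene and library. Such data lack the library order shared by most genes called higher, and no result here rests on that run. The members, lists and tests were chosen with earlier results of these data known. Named were the 7 members, other clade B serpins above the filter, the called genes of each list of other serpins, proteases and neighbours (all if 5 or fewer), and the 5 genes most correlated with Serpinb9b and with Serpinb6b. A gene that this rule names among serpins of other clades is not reported here.

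Depth was read from whole-read steps of RPKM in genes with 1 GENCODE M21 transcript, where 26.1% to 27.3% of values came out whole within 0.02, so no counts were rebuilt. Sequences were aligned with Biopython 1.88 (match 1, mismatch -1, gap opening -3, extension -0.5), and coding sequences and 50-base stretches came from GENCODE M21 transcripts, with coding identity given over the shorter sequence and in place of protein identity. Alternatives were a pseudocount of 0.1, no filter or 5 TPM, RPKM, median-of-ratios or quantile scaling, no trend, a replicate block, and leaving out each library or those numbered 2.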

Additional observations from a re-analysis of the deposited data

How the results depend on the processing

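Between 13 and 15 alternatives were computed per gene. Serpinb9, Serpinb1b and Serpinb1c kept their calls in each. The log2 change of Serpinb9b was 4.06 to 4.60 when 1 library was left out and 3.68 with RPKM, where the pseudocount of 1 weighs more. That of Serpinb6a, never past the threshold, turned to 0.015 with RPKM, 0.014 with median-of-ratios scaling and 0.039 without the libraries numbered 2, and ran from -0.072 to 0.01 with 1 library left out. Serpinb6b was at 0.71 but not past the threshold without the filter; with 1 library left out it ran from 0.56 to 0.87, and Serpinb1a from 1.01 to 1.42.

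With 1 library left out, the members beside Serpinb9b called higher numbered 1 to 3. This count includes Serpinb1a and was 3 in the main fit. Other counts ran from 0 to 1 higher and 0 to 1 lower for serpins of other clades, 1 to 5 higher and 0 to 2 lower for proteases, 0 to 3 higher and 0 to 2 lower for neighbouring genes, and 384 to 2217 higher and 136 to 2796 lower for all genes. Without the filter there were 672 higher and 355 lower of all genes, 1 higher protease, 0 higher serpins of other clades, and 2 higher and 0 lower neighbours. A filter of 5 TPM gave 1 higher among the other clade B serpins, 0 lower serpins of other clades, and 0 higher and 0 lower neighbours; RPKM gave 1, 0, 3 and 0. Quantile normalization gave 0 lower serpins of other clades and 4 higher neighbours, median-of-ratios scaling 4 higher neighbours and a pseudocount of 0.1 gave 0 lower. Without the libraries numbered 2 there were 768 higher genes of all, 3 higher proteases, 0 lower serpins of other clades and 0 lower neighbours. The causes were not tested, except that stricter filters and RPKM test fewer genes.

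The replicate block gave 2 higher and 2 lower neighbours and changed no call of a clade B serpin. Deviations of same-numbered libraries correlated at 0.07, 0.29 and 0.04, and not every library correlated best with its own number, so the numbers were not taken as pairs. Some serpins were low: in vehicle Serpinb2 had a mean of 0.0457 TPM, and Serpinb1a a higher one of 0.530 TPM, both under 1 TPM. How far depth limits such values was not tested.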
